A study of Mus musculus with 2 samples.

Results

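The genes described here are 33 transcription factor genes that act in the developing neuroectoderm, the sheet of embryonic cells that gives rise to the brain, spinal cord, eye and neural crest. They were taken as a named list, not by a cut on any measured value, but were chosen with earlier results of these data known. They are compared with the 22193 other protein-coding genes among 22226 in all. The data are ChIP-seq peaks, sites where sequenced DNA was enriched with an antibody to POU5F1 (OCT4), in E14TG2a.4, an embryonic stem cell line from a male embryo of mouse strain 129/Ola. There is 1 group, with 2 biological replicates, no treatment in the labels and no comparison condition, and the line is a single cell line in culture. The labels' control experiment was not analysed here. The files hold peak positions and no expression, so neither the activity of these genes nor the identity of the cells was checked.

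POU5F1 is a POU-domain protein that keeps embryonic stem cells pluripotent. It binds the octamer ATGCAAAT, often beside SOX2 on a composite SOX-POU element, a SOX site joined to an octamer. When such cells leave pluripotency towards the neural fate, SOX and PAX genes mark the neural plate, Notch signalling and proneural genes set when cells become neurons, and homeobox genes divide the tissue from front to back and from dorsal to ventral. The POU class III genes of the list, Pou3f2 and Pou3f3, encode relatives of POU5F1 that act in neural cells.

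Peaks lay near 16 of the 33 genes (48.5%) when a peak centre within 50 kb of any annotated transcript start was required, in the list that the authors deposited for the whole series on genome build mm9 (5515 peaks). The same window held a peak for 27.3% of the other protein-coding genes, which gives a ratio of 1.78. The genes were Pax6, Six3, Hes5, Neurog1, Nkx2-2, Olig1, Olig2, Dlx5, Gbx2, En1, En2, Pax2, Pax3, Pax7, Meis2 and Pou3f3. Within 10 kb there were 7 genes (21.2%), Pax6, Six3, Nkx2-2, Hes5, Neurog1, Pax7 and Meis2, against 8.64% of the others. The signal of these peaks was moderate: their median was 6.02, beside 5.58 over all peaks of the list. The exception was a peak of signal 22.61, 44.4 kb downstream of En2 but 0.0710 kb from the start of Cnpy1, its nearest gene.

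The sequences below are shown because they hold a match to the octamer or the composite element, exact or with mismatches. They come from the strongest member peak, the peak with the composite element and each peak with an exact octamer. Each is read 5′ to 3′ on the strand of the match from the mm9 reference genome, not from the cells, with the match in capitals and its flanks in lower case.
En2, signal 22.61, octamer with 1 mismatch: cgcagttgtcATGCAAACttccttcttt
Neurog1, downstream peak, composite element with 2 mismatches: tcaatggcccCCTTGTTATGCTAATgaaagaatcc
Pax7, upstream peak, exact octamer: agcaatctctATGCAAATtaattttatt
Olig1 and Olig2, shared peak, exact octamer: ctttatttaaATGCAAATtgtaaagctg
En1, exact octamer: tttaatttatATGCAAATgaaagcaata
The En2 line is from the peak at the Cnpy1 start. The Pax7 octamer lay 3 bp from the centre of its peak. The Olig1 and Olig2 octamer lay 75 bp and the En1 octamer 87 bp from the centre, near the edge of the 100 bp searched on each side.

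**Figure D1:**
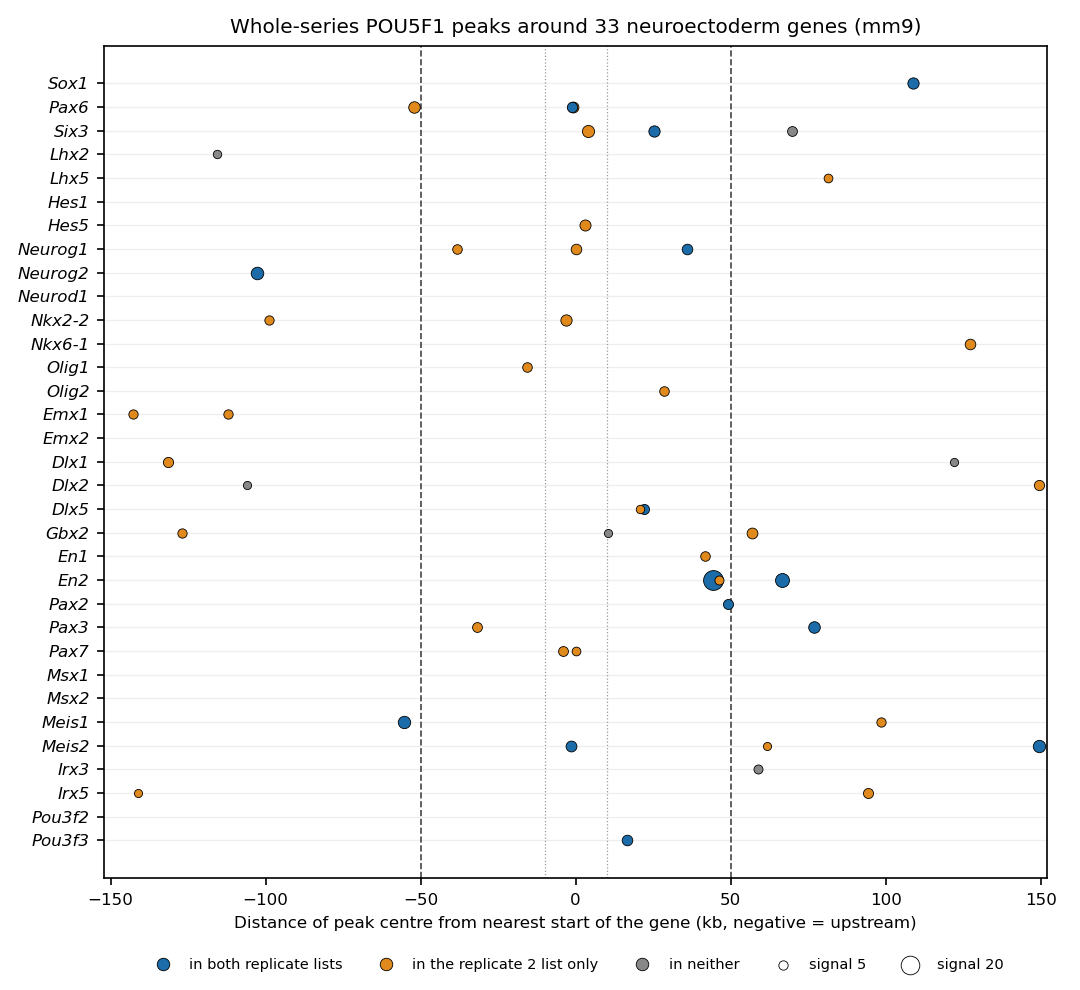
Whole-series mm9 peaks around the 33 genes: the x axis gives the distance of each peak centre from the nearest transcript start of the gene in kb (negative is upstream), each row is 1 gene, the size of a point is the deposited signal and its colour the replicate lists that hold the peak; dashed lines mark 50 kb and dotted lines 10 kb. The 22 peaks inside the dashed lines lie near 16 genes, and the largest point is the peak of signal 22.61 in the En2 row, which lies at the Cnpy1 start.

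Replicate support differed between the lists. The mm9 list of replicate 1 holds 1330 peaks and that of replicate 2 holds 6324, so the 2 lists do not have the same reach, and depth is unknown. In the replicate 1 list 8 of the 33 genes (24.2%) had a peak within 50 kb, against 8.13% of other genes, and 2 (6.06%), Pax6 and Meis2, within 10 kb, against 2.28%. In the replicate 2 list the counts were 18 (54.5%) against 30.0%, and 8 (24.2%) against 9.67%. The share of these genes was above that of the other genes in both lists and at both windows, with ratios from 1.82 to 2.98. No test is given, since there is 1 group and the genes were chosen with earlier results of these data known.

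The genes of the list also stand farther from their neighbours. The median distance to the start of the next gene was 51.9 kb, against 16.9 kb for other genes, and its part in the result was not tested. Both sets had a median of 2 annotated starts per gene, although Pax6 has 29 and Meis2 15. When a peak was given only to the gene with the nearest start, 11 of the 33 genes kept a peak within 50 kb, a ratio of 2.48 to the share of other genes under the same rule. With no limit of distance, 15 genes (45.5%) were the nearest gene of at least 1 peak, against 17.4% of other genes. By its construction a nearest-start rule favours genes that stand far from their neighbours, so neither count allows for the spacing. The median distance from a member to its closest peak was 55.4 kb, against 127 kb.

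**Figure D2:**
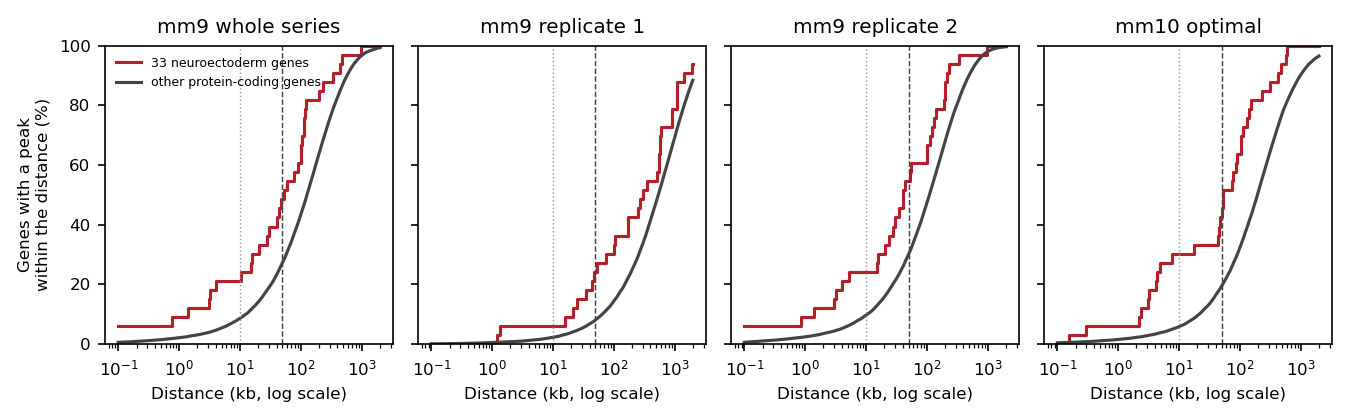
Share of genes with a peak centre within a given distance of a transcript start (y axis, percent; x axis, kb on a log scale) in 4 peak lists, for the 33 neuroectoderm genes (red) and the other protein-coding genes (grey); the dotted and dashed lines mark 10 and 50 kb. At both marked distances the red line is above the grey one in each list, for example 48.5% against 27.3% at 50 kb in the whole-series list.

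The 16 genes had 22 distinct peaks within 50 kb, since Olig1 and Olig2 share 1. Of these, 8 (36.4%) overlapped a peak of both replicate lists, 13 (59.1%) a peak of the replicate 2 list alone, and 1, at Gbx2, a peak of neither. Over all whole-series peaks the shares were 21.9%, 64.8% and 12.5%. A start of any gene lay within 1 kb of 6 of the 22 peaks (27.3%, beside 10.5% of all peaks), 8 lay between genes, 6 in introns and 2 in exons. The 22 peaks were taken within 50 kb of a start, while all peaks include those far from any gene. The shares near a start and those of replicate support are therefore not of like sets. By another measure, on mm10 and described below, 43.5% of entries near members were in the conservative list, beside 60.8% of all optimal peaks. For 15 of the 22 a member was the nearest gene. The other 7 were closer to another gene, which is named with each of them. Distances below are in the whole-series list unless another list is named.

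Among the genes of the early neural plate and eye field, Pax6, the homeobox gene needed for eye formation, had 2 peaks close to its starts. The first, chr2:105517480-105518050, centred 0.783 kb upstream of a start, had a whole-series signal of 6.75. It was in the replicate 2 list at signal 12.09 (rank 1108) and had no overlapping peak in the replicate 1 list. The second, chr2:105531251-105531941, lay further into the gene over an exon, 1.04 kb before another start, and was in both lists. Its signal was 6.17 in the whole-series list, 6.66 in that of replicate 1 (rank 866) and 9.83 in that of replicate 2 (rank 1996). Signals are the authors' own and their scaling is not stated, so they are read by rank within a list and not across lists; tied peaks share the best rank.

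Six3, which directs forebrain and eye development, also had 2 peaks. A peak of signal 8.52 (rank 679 of the whole-series list), chr17:86024233-86024699, lay over the 3′ exon 4095 bp downstream of a start and was found in the replicate 2 list (signal 16.63, rank 399) and not in that of replicate 1. The other, chr17:86045567-86045969, lay between genes 25.4 kb downstream, with signal 7.34, and was in both lists (5.60 at rank 1132 in replicate 1, 9.83 at rank 1996 in replicate 2). The stronger Six3 peak was therefore the one that 1 list lacked. The 3 remaining genes of this role had none within 50 kb: the closest whole-series peaks were 81.3 kb from Lhx5, 109 kb from Sox1 and 116 kb from Lhx2. Sox1, an early marker of neural progenitors, and Lhx5, a LIM homeobox gene of the forebrain, had peaks at 36303 bp (signal 9.07) and 24017 bp (6.80) in the replicate 2 list that the whole-series list does not hold.

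Hes5, a repressor that Notch signalling switches on, had 1 peak, chr4:154337960-154338402, centred 3.10 kb downstream of its start, with signal 7.05 in the whole-series list. It was in the replicate 2 list at 13.60 (rank 757) and not in the replicate 1 list. Its centre was 0.0510 kb from the start of the neighbouring gene Pank4, so it is a promoter peak of that gene. Hes1, the other Notch effector of the list, had its closest peak 492 kb away in the whole-series list and 102 kb away in the replicate 2 list.

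Of the proneural basic helix-loop-helix genes, which commit progenitors to become neurons, Neurog1 had 3 peaks and Neurog2 and Neurod1 none within 50 kb. At the Neurog1 start, chr13:56353191-56353910 (0.0270 kb upstream) had signal 6.46 and was in the replicate 2 list (9.83). A peak 36.0 kb downstream, chr13:56317430-56317714, had the same signal and was in both lists, at 4.98 (rank 1277) in replicate 1 and 8.31 (rank 3163) in replicate 2; it carries the composite element shown above. The peak 38.1 kb upstream (5.29, replicate 2 list) lay in an intron of Cxcl14. Neurog2 had a peak of signal 9.04 (rank 575) in both lists at 103 kb, closer to Larp7, and Neurod1 had none nearer than 1030 kb in the mm9 whole-series list, while the closest mm10 optimal peak was at 111 kb.

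In the ventral patterning group, which Hedgehog signalling controls, Nkx2-2 had a peak of signal 7.34 (chr2:147015127-147015684) 3.27 kb upstream of a start, inside an intron of another of its transcripts and of the antisense gene Nkx2-2as. It was in the replicate 2 list (13.60, rank 757) and not in that of replicate 1. Olig1 and Olig2, adjacent genes of motor neuron and oligodendrocyte precursors, shared the peak chr16:91254203-91254501, 15.7 kb upstream of Olig1 and 28.6 kb downstream of Olig2. Its signal was 5.29 and only the replicate 2 list held it (8.31), so these are 2 genes and 1 site. Nkx6-1, a homeobox gene of ventral progenitors, had its closest peak 127 kb away.

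In the forebrain group Dlx5, which acts in inhibitory neurons, had 2 neighbouring peaks and the other 4 genes had none. The wider, chr6:6809473-6810451, had signal 5.87 and was in both lists (7.47 at rank 476 in replicate 1, 8.31 at rank 3163 in replicate 2). The narrower, of signal 4.11, was in the replicate 2 list (6.80). They lay 22.1 and 20.9 kb downstream of Dlx5, but 3.37 and 2.15 kb from the start of Dlx6, in or beside Dlx6os1. Dlx1 and Dlx2 had their closest peak at 122 and 106 kb, Emx1 at 112 kb and Emx2 at 246 kb.

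In the whole-series list all 4 genes of the midbrain and hindbrain group had a peak within 50 kb, against 27.3% of other genes, and none within 10 kb. This depended on the list. In the mm10 optimal list, described below, only En2 of the group had a peak within 50 kb. In the mm10 conservative list Gbx2 had one at 8.12 kb. En2, the engrailed gene of the midbrain and hindbrain, had the strongest member peak, chr5:28536325-28536941, at rank 20 of 5515 in the whole-series list. Both replicates ranked it as high, at 17.42 (rank 21) in replicate 1 and 38.55 (rank 22) in replicate 2. Its centre was 0.0710 kb from the start of Cnpy1, the nearest gene, and 44.4 kb from that of En2. A weak peak of signal 4.69 followed 46.2 kb downstream of En2, also in Cnpy1. Of the other peaks of the group, that of Pax2 (5.87, both lists) was in an intron of the gene 49.0 kb from the nearest start, and that of En1 (5.29, replicate 2 list) lay 41.6 kb downstream. Gbx2, which sets the border of midbrain and hindbrain, had the weakest member peak (3.82, rank 5250), 10.4 kb downstream, closer to D130058E05Rik and in neither replicate list.

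Among genes of the dorsal neural tube and neural crest, Pax7 had 2 peaks, both in the replicate 2 list and not in that of replicate 1. One of signal 4.41 (7.56 in replicate 2) covered the start, with its centre 0.0420 kb away, and one of 5.58 (8.31 in replicate 2), chr4:139393463-139393797, lay 4.18 kb upstream over the exact octamer shown above. Pax3 had a peak of 5.58 at 31.7 kb upstream in the replicate 2 list. Msx1 and Msx2, homeobox genes that BMP signalling induces, had their closest whole-series peaks at 451 and 212 kb; in the replicate 2 list that of Msx1 was at 215 kb.

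Of the TALE homeobox genes, Meis2 had a peak (6.75, chr2:115885807-115886162) 1.41 kb upstream of 1 of its starts, in an intron of other transcripts. It was in both lists, and ranked higher in that of replicate 1 (8.09, rank 351) than in that of replicate 2 (6.80, rank 4994). Its relative Meis1 had a stronger peak, of signal 8.81 (rank 583), in both lists but 55.4 kb away, the first gene beyond the 50 kb limit; Irx3 followed at 58.8 kb. The last gene inside was Pax2 at 49.0 kb. Irx5 had a peak of signal 9.07 at 5.56 kb in the replicate 2 list, and none closer than 94.3 kb in the whole-series list. Pou3f3 had a peak 16.5 kb downstream (6.46, both lists, at rank 665 in replicate 1 and 1996 in replicate 2), while the closest to Pou3f2 was at 343 kb.

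**Figure D3:**
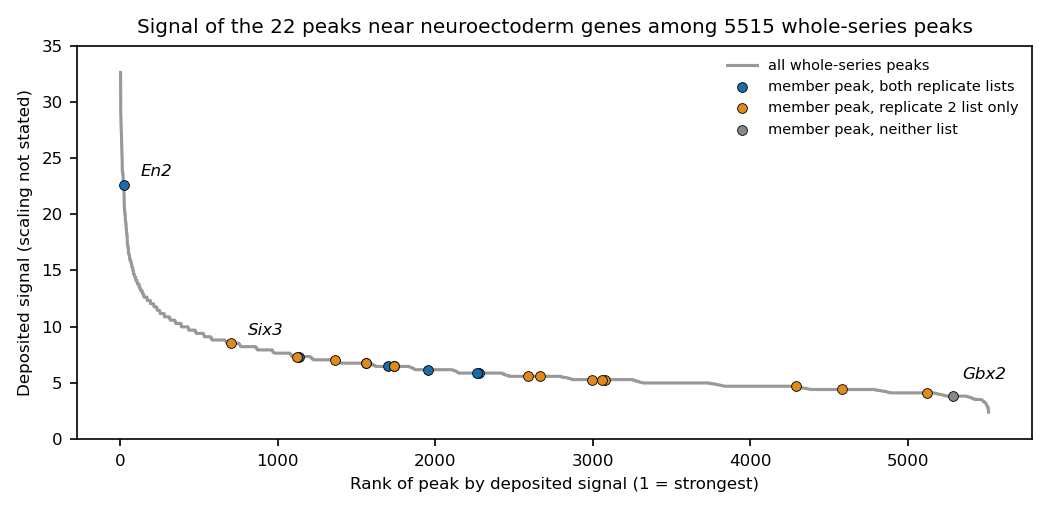
Deposited signal (y axis, scaling not stated) of all 5515 whole-series peaks by rank (x axis, 1 is strongest; grey line) with the 22 peaks near neuroectoderm genes as points coloured by the replicate lists that hold them. One point, En2 at 22.61, is on the steep part of the curve, and the others lie between 3.82 and 8.52.

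By strength, 13 of the 22 member peaks were above the list's median signal and 1, at En2, was in its top decile. The median −log10 p was 13.5, beside 10.9 over all peaks, and the median width 430 bp, beside 367 bp. For the 8 member peaks in both replicate lists the median signal was 6.46, below the 8.63 of all whole-series peaks in both lists. The regions were richer in G and C letters, with a median of 51.7% within 100 bp of the centre (40.8 to 70.6%), beside 46.3% over all peaks. Here too all peaks include those far from any gene, which was not allowed for. The highest value was at the Neurog1 start. In the 6 peaks close to a gene start the median was 56.5%, and in the other member peaks 50.7%.

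Binding letters were searched on both strands within 100 bp of each peak centre. The composite element, with up to 2 mismatches, was in 1 of the 22 member peaks (4.55%), beside 9.30% of all peaks, and the exact octamer ATGCAAAT in 3 (13.6%), beside 13.4%. The 3 peaks with the exact octamer were all in the replicate 2 list and not in that of replicate 1, and the composite peak was in both. With 1 mismatch allowed the octamer was in 13 (59.1%), beside 53.7% of all peaks and 19.9% of windows placed 2 kb away from the peaks. All these shares lie near or below those of all peaks. ATGCTAAT, a variant that counts as an octamer with 1 mismatch and was looked up after the sequences had been seen, was in 3 member peaks (13.6%), at Hes5, Six3 and Neurog1, beside 7.78%. At Neurog1 it is the POU part of the composite element.

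The SOX site CATTGT was in 2 member peaks (9.09%), beside 19.1% of all peaks and 10.6% of windows placed 2 kb away from the peaks. Both are peaks of Neurog1, at its start and 38.1 kb upstream, the latter closer to Cxcl14. The longer elements MORE and PORE, which bind POU dimers and were searched with up to 1 and 2 mismatches, were in none of the 22, beside 2.38% and 1.76% of all peaks. The octamer is part of PORE and of the composite element, so these counts overlap. A match is a run of letters and was not tested as a site.

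Longer stretches are shown for member peaks near Six3, Nkx2-2 and Hes5, the next strongest after En2 that can be shown, on the plus strand with each octamer match of at most 1 mismatch in capitals. They are chr17:86045668-86045868, chr2:147015306-147015506 and chr4:154338081-154338231 of mm9, in the order of the lines.
Six3, 25.4 kb downstream: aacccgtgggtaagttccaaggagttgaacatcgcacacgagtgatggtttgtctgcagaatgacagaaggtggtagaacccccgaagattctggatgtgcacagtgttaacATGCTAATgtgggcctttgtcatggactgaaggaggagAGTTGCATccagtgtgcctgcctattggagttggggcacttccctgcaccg
Nkx2-2, upstream: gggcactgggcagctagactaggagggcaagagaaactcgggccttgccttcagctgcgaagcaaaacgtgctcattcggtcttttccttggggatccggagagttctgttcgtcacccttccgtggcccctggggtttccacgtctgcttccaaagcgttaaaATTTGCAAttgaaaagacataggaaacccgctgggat
Hes5, at the Pank4 start: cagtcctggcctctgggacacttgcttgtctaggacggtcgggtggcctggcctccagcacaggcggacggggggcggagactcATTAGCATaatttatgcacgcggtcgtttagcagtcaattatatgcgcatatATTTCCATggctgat
The Six3 and Hes5 stretches hold 2 such matches and that of Nkx2-2 holds 1. In Six3 ATGCTAAT reads on the plus strand, and in Hes5 the minus strand gives it, as ATTAGCAT on the plus strand.

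On build mm10 the authors deposited lists filtered on irreproducible discovery rate (IDR), which rates how reproducible a peak is from its ranks in sets of peaks. The other genes on this build were 21066 with a RefSeq start, not the set used on mm9. In the optimal list (3994 peaks) 14 of the 33 genes (42.4%) had a peak within 50 kb, against 19.4% of other genes, and 10 (30.3%) within 10 kb, against 5.86%. Of those within 10 kb, Olig2, Emx1 and Dlx5 rested on entries ranked from 3743 to 3988 in the list. In the smaller conservative list (2676 peaks) there were 9 (27.3%, against 13.6%) and 7 (21.2%, against 3.92%). Comparing the optimal list with the mm9 whole-series list, 12 genes had a peak within 50 kb in both. This counts genes and does not require the same site. For Olig2 the mm9 peak lay 28.6 kb downstream and the mm10 entries 2.49 and 44.4 kb upstream, the nearer of which is also the Olig1 entry. For Dlx5 the peaks lay 20.9 and 22.1 kb downstream on mm9 and 7.77 and 7.97 kb on mm10. Gbx2, En1, Pax2 and Pax3 had one in the whole-series list but not in the optimal list, and Nkx6-1 (49.0 kb) and Emx1 (2.22 kb) in the optimal list but not in the whole-series list. The 15 genes near none in either of these 2 lists were Sox1, Hes1, Neurog2, Neurod1, Lhx2, Lhx5, Emx2, Irx3, Irx5, Dlx1, Dlx2, Meis1, Pou3f2, Msx1 and Msx2. Gene starts on mm10 came from RefSeq tables with fewer starts for Pax6, so its distances of 4.89 and 8.91 kb there are not those of mm9.

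The optimal list held 23 entries near members, at 21 separate sites. Of these entries 10 (43.5%) were also in the conservative list, beside 60.8% of all optimal peaks. Each replicate also has a relaxed list of 300000 entries, in which 7 of the 23 (30.4%) were among the strongest 3994 of both replicates, beside 43.1% of all optimal peaks. The median rank of member entries was 6111 in replicate 1 and 2496 in replicate 2, beside 3146 and 2006.5 for all optimal peaks. Member entries thus ranked below the typical optimal peak in both replicates, and by more in replicate 1.

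Individual sites were uneven. The En2 site ranked 31 in replicate 1 and 35 in replicate 2, and the Hes5 site 595 and 466, although the mm9 list of replicate 1 has no peak at Hes5. Pax6 had 1 site at rank 419 in replicate 1 and 2349 in replicate 2, and 1 at 275393 in replicate 1 and 2012 in replicate 2. The 2 sites thus differed in replicate 1 and were close in rank in replicate 2. Pou3f3 had rank 844 in replicate 1 and 14332 in replicate 2. The Meis2 entry, 4.42 kb downstream of a start, ranked 7379 in replicate 1 and 6008 in replicate 2. Its order was not that of the mm9 peak of Meis2, which ranked higher in the replicate 1 list. The Dlx5 entries, 7.77 and 7.97 kb downstream, had no entry in the relaxed list of replicate 1 and rank 43616 in replicate 2. At Emx1 the closest entry had rank 6111 in replicate 1 and no overlapping entry in replicate 2. Gbx2 had a conservative peak at 8.12 kb, while its closest optimal peak was at 54.6 kb.

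**Figure D4:**
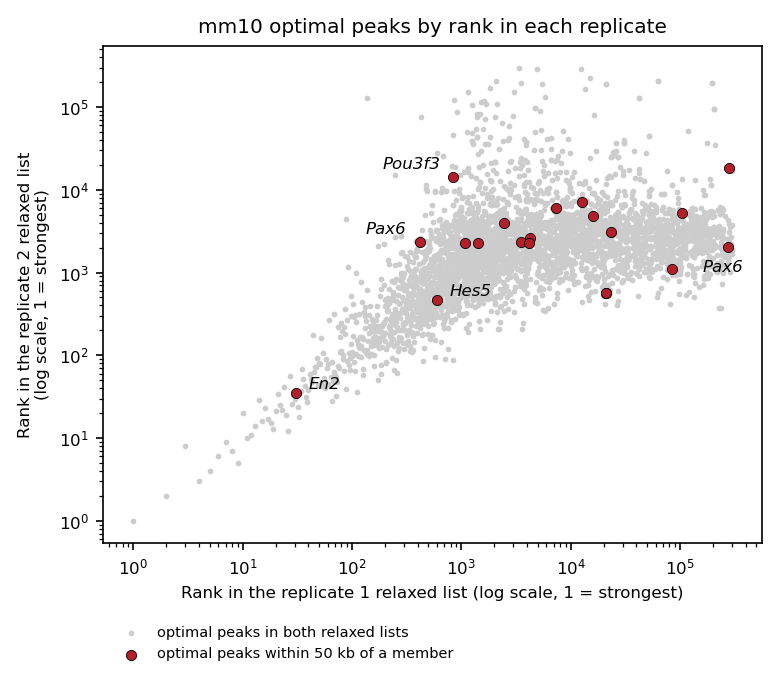
Rank of each mm10 optimal peak in the relaxed list of replicate 1 (x axis) and of replicate 2 (y axis), both on log scales with 1 as the strongest; grey points are optimal peaks with an entry in both lists and red points those within 50 kb of a neuroectoderm gene. En2 (31 and 35) is the red point nearest to the lower left corner, and the other red points spread to the right along the replicate 1 axis.

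Genes that work with these factors were taken from 3 further lists, read against the same shares of other genes within 50 kb: 27.3% in the whole-series list, 8.13% in the replicate 1 list and 30.0% in the replicate 2 list. The counts are not independent. Gli1, Gli2 and Gli3 are in both the list of other neural transcription factors and the Hedgehog list. The peaks counted above for Dlx5 also lie near Dlx6, which is in the former. Of 50 other neural transcription factors 19 (38.0%) had a peak, 10 (20.0%, against 8.13%) in the replicate 1 list and 21 (42.0%, against 30.0%) in that of replicate 2. The strongest peaks were near Rax (27.60, closer to Grp), an eye field homeobox gene, Sox2 (19.09, 3.91 kb downstream), the partner of POU5F1, and Nkx6-2 and Sox10 (12.92 each, closer to Inpp5a and Pick1). Of 22 Notch pathway genes 11 had a peak, led by the ligand Dll1 (10.87), the receptor Notch1 (9.98), the modifier Lfng (9.69) and the coactivator Maml2 (7.93), all in both replicate lists. The count was 4 (18.2%, against 8.13%) in the replicate 1 list and 8 (36.4%, against 30.0%) in that of replicate 2. Of 15 Hedgehog pathway genes 8 (53.3%) had a peak, 4 (26.7%, against 8.13%) in the replicate 1 list and 10 (66.7%, against 30.0%) in that of replicate 2, led by the receptor Ptch1 (16.15), Sufu (8.92, closer to Trim8), Gli2 (7.52) and Cdon (7.05, the replicate 2 list). The peaks at Dll1, Notch1, Lfng, Ptch1 and Sufu were higher in signal than every member peak but that of En2.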

How the data were processed

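The authors deposited peak lists, and no read counts were used, so depth is unknown. Deposited mm9 lists give a signal, a −log10 p (none below 5) and a q-value per peak; the deposited mm10 lists give a signal, a −log10 q and, after IDR, a score. The aligner, the peak caller, the IDR threshold, the scaling of the signal and how the replicates were combined are not given in the sources used here. The replicates are biological per the labels. Transcript starts came from NCBIM37 (mm9) with GENCODE M1, which holds 32 of the 33 genes. Sox1 was placed by its 300-base RefSeq promoter, which matched the mm9 genome at 1 position. On mm10, starts came from RefSeq (GRCm38.p6) and no sequence was read. Peaks of 2 lists overlapped when they shared at least 1 bp. Scripts ran in Python 3.11.15 with numpy 2.4.6 and pandas 2.3.3 and were tested on simulated data. Disp1 of the Hedgehog list had no match. The members and lists were chosen with earlier results of these data known. All members were named, with up to 4 genes of each further list by their strongest peak, and sequences were taken in order of signal, with UTRs left out beyond a match. Alternatives were other lists, windows, starts, thresholds and mismatches; leaving out Sox1 and peaks in at least 1 replicate list were added after seeing the data.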

Additional observations from a re-analysis of the deposited data

How the results depend on the processing

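The count of genes within 50 kb, 16, ranged from 8 to 18 when 1 replicate's list was left out: the list of replicate 1 alone, without replicate 2, gives 8. It was 8 with peaks in both replicate lists, 9 with the mm10 conservative list and 10 with a window of 20 kb. The count within 10 kb, 7, ranged from 2 to 8 without 1 replicate and was 2 with peaks in both lists. The ratio of shares, 1.78, ranged from 1.82 to 2.98 without 1 replicate and was 3.18 with peaks in both lists; it was above 1 in every alternative run, lowest at 1.40 with a window of 100 kb. The 22 distinct peaks became 8 to 27 without 1 replicate, 8 in both lists, 13 in the conservative list, 12 at 20 kb and 34 at 100 kb. The composite element was in 0 member peaks with 1 mismatch and in 5 with 3, and the octamer in 1 with 50 bp on each side, in 13 with 1 mismatch, and in 0 to 4 without 1 replicate. Median signal was 6.75 for peaks within 10 kb and 6.46 for peaks in both lists; as −log10 p the median was 13.5. Of the alternatives for counts, 35 were within 1.5 times the reported count, among them 11 genes and 15 peaks with the nearest gene only, and 16 were not. Of those for the ratio, 12 were within 0.824 of it and 2 were not. The 0.824 is the SD of only 2 ratios, 1.82 and 2.98, from replicate lists of unlike size. Both are themselves among these alternatives, so it is a yardstick and not a replicate error. Where a value moved with fewer peaks or a narrower window, the alternative's own construction gives fewer; other causes were not tested. No paired analysis was possible because there is 1 group. Depth is unknown, so a gene with no peak in a list is not shown to be unbound.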
